A study of Mus musculus with 8 samples.

Results

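The genes described here encode molecular chaperones and co-chaperones: the heat shock protein families HSP70, HSP110, HSP90, HSP60/HSP10 and small HSP, the J proteins, the TRiC/CCT chaperonin and the BAG proteins. Members were all genes whose mouse symbol begins with Hspa, Hspb, Hspd, Hspe or Hsph and a digit, Hsp90, Dnaja, Dnajb or Dnajc and a digit, Cct2 to Cct8, Tcp1, or Bag1 to Bag6, without pseudogenes. The rule used symbols and no measured value, and it found 87 of the 37224 genes in the count table. Hspa14 has no row under that symbol in the table and was not analysed here. The samples were 8 single mouse oocytes at the MII stage, mature eggs that wait in the second meiotic division for fertilisation, taken from superovulated females. Of these, 4 came from Setd1bGdf9cKO mice, a conditional knockout of the histone H3 lysine 4 methyltransferase gene Setd1b, and 4 from control mice. The allele is named after Gdf9, a gene whose promoter is active in growing oocytes; the labels give no age, strain or further allele for either group, and do not give how many females gave the 4 oocytes of each group. The p-values therefore cover the spread among single oocytes and libraries, which may be technical.

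Chaperones bind unfolded or partly folded proteins and help them reach or regain their structure. HSP70 proteins do so in cycles of ATP hydrolysis that J proteins start and that nucleotide exchange factors, among them the HSP110 and BAG proteins, complete. HSP90 takes over certain clients late in folding, and TRiC/CCT, a ring-shaped chaperonin built from related subunits, folds actin and tubulin. An MII oocyte makes almost no new RNA and lives on transcripts stored during growth, so its chaperone mRNAs are part of that store, and the spindle of the arrested egg is built of tubulin.

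Levels are given as CPM, a gene's count scaled to the library total and to a composition factor (TMM). A gene is called higher or lower where edgeR's quasi-likelihood test gave an adjusted p under 0.05 over all 11066 genes tested. Setd1b itself stood at 2.97 to 5.06 CPM in knockout and 9.24 to 12.8 CPM in control libraries (log2 fold change -1.44 ± 0.41, SE, n = 4 per group; adjusted p = 0.0221 in edgeR, 0.0519 without knockout replicate 3, 0.054 without control replicate 2, 0.0894 with library totals only and 0.0682 with a length trend removed and the library mean kept). Which exons the allele removes is not stated in the labels, so the remaining knockout counts may lie in exons that were kept. Libraries held 9488899 to 11313502 assigned counts in the knockout and 11029602 to 13519404 in the control group, with composition factors of 1.07 to 1.22 and 0.799 to 0.946. All 11 oocyte markers checked were detected, with a summed level of 9910 to 14303 CPM in knockout and 12460 to 15216 CPM in control libraries; 4 of them were higher and 2 lower. Of 16 markers of cumulus and granulosa cells, 8 had no count in any library, among them Amh, Foxl2, Inha and Lhcgr. The 16 summed to 68.9 to 127 CPM in knockout and 111 to 159 CPM in control libraries. Nearly all of that sum lay in Cyp19a1, Kitl and Nr5a2, and Cyp19a1 was lower in the knockout (log2 fold change -0.85). The part of these differences in the chaperone results was not tested.

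Most chaperone genes did not differ between the genotypes past the threshold, and those that did were more often higher than lower in knockout oocytes. Of the 87 members, 61 had enough counts to be tested; 14 were higher (23.0%), 4 were lower (6.56%) and 43 were not called. Over all 11066 tested genes 13.6% were higher and 12.2% lower, so members lay above the background among higher calls and below it among lower ones. Every knockout library stood above every control library for 18 tested members, against 17.7% of all tested genes, and below for 5, against 13.6%. The 18 above were 29.5% of the tested members and the 5 below 8.20%. The median log2 fold change of the tested members was 0.37, against 0.10 for all tested genes, and this gap of 0.27 was between 0.27 and 0.56 in all 16 alternative analyses. For 1 tested member (Dnajb12), and for 249 of all 11066 tested genes, no control library reached the level that the filter asks for. Dnajc15, Bag1, Dnajb14, Dnajc4, Dnajc16 and Dnajc18 reached it in all 4 knockout libraries and in 1 to 3 control libraries. Their knockout counts alone were thus enough for them to be tested. Dnajb12 and Dnajc15 are among the 18 above, and Dnajb12 is also among the 14 higher.

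The balance of the calls depended on scaling. With library totals as the only scaling, which moves the median of all genes by 0.39, 23 members were higher and 1 lower, beside 2382 higher and 504 lower among all 11066 tested genes. With a transcript length trend removed, which moves that median by -0.36, 8 members were higher and 9 lower, beside 974 higher and 2493 lower among all. With the length trend removed and the library mean kept, which moves it by 0.03, 14 members were again higher and 4 lower, beside 1522 and 1241 among all. Without knockout replicate 1, 9 members were higher, beside 1075 of all 11374 genes tested in that fit. Without knockout replicate 2, 2 members were lower, beside 837 of all 11364. With all libraries, 1503 of all 11066 tested genes were higher and 1347 lower.

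**Figure D1:**
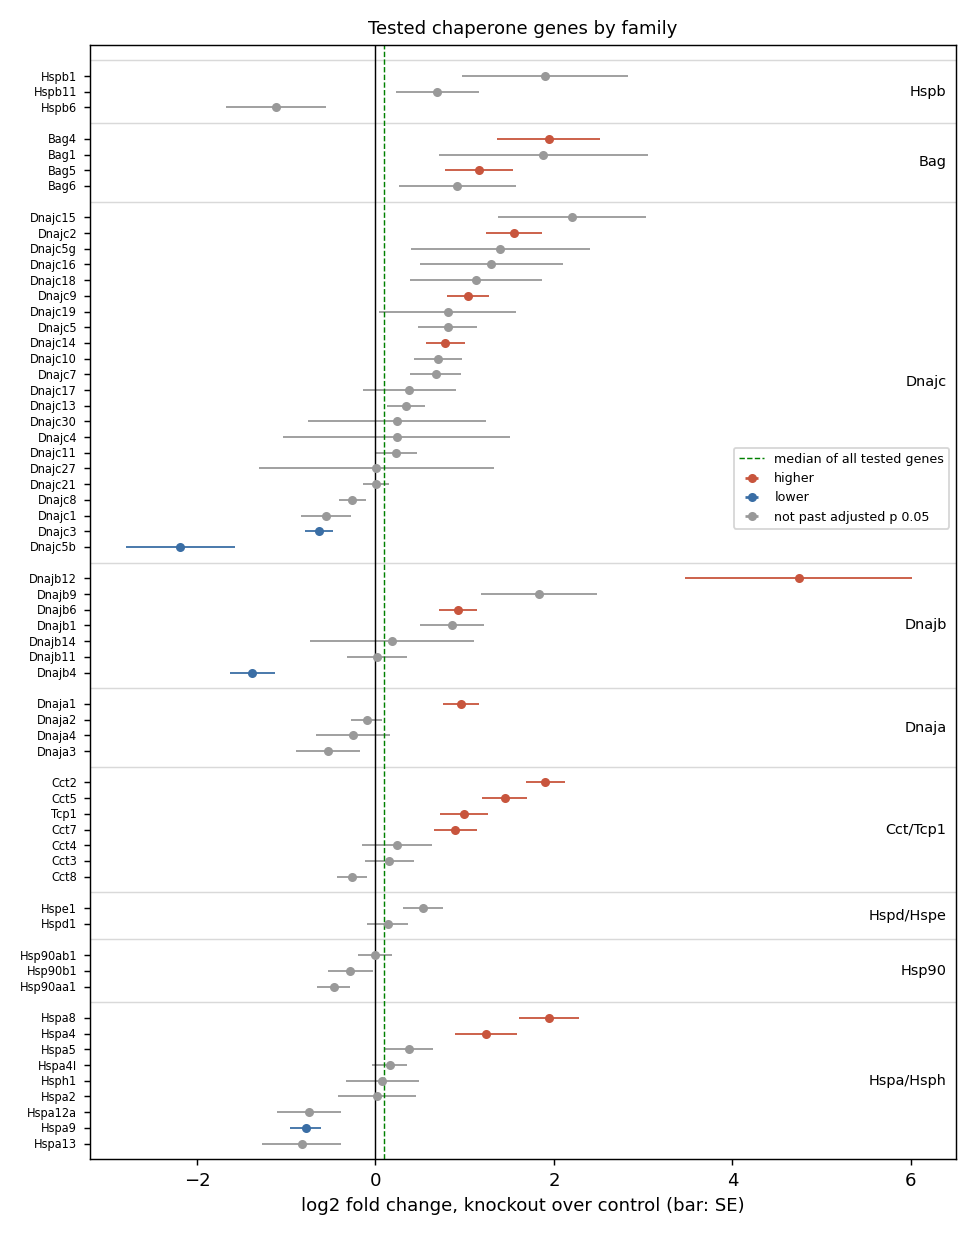
Log2 fold change of knockout over control with its SE for the 61 tested chaperone genes, by family; red points are higher, blue points lower and grey points not called at an adjusted p of 0.05, and the dashed line is the median of all tested genes. Red points lie in the Hspa/Hsph, Cct/Tcp1, Dnaja, Dnajb, Dnajc and Bag rows, while the 3 Hsp90 genes lie at or left of 0.

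The higher members were of modest abundance and the lower ones, except Dnajc5b, were abundant. In control oocytes the 14 higher members had a median of 32.1 CPM and none exceeded 61.0 CPM, while the 4 lower members had a median of 338 CPM. The tested genes as a whole showed the same ordering, with a control median of 8.19 CPM for all higher genes and 186 CPM for all lower genes. Gene model lengths of the called members were alike, with a median of 4192.5 bp for the higher and 4125 bp for the lower members. The median was 3580 bp for all tested genes. In the whole table length did differ by direction, with a median of 2869 bp for all higher genes and 4359 bp for all lower genes.

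**Figure D2:**
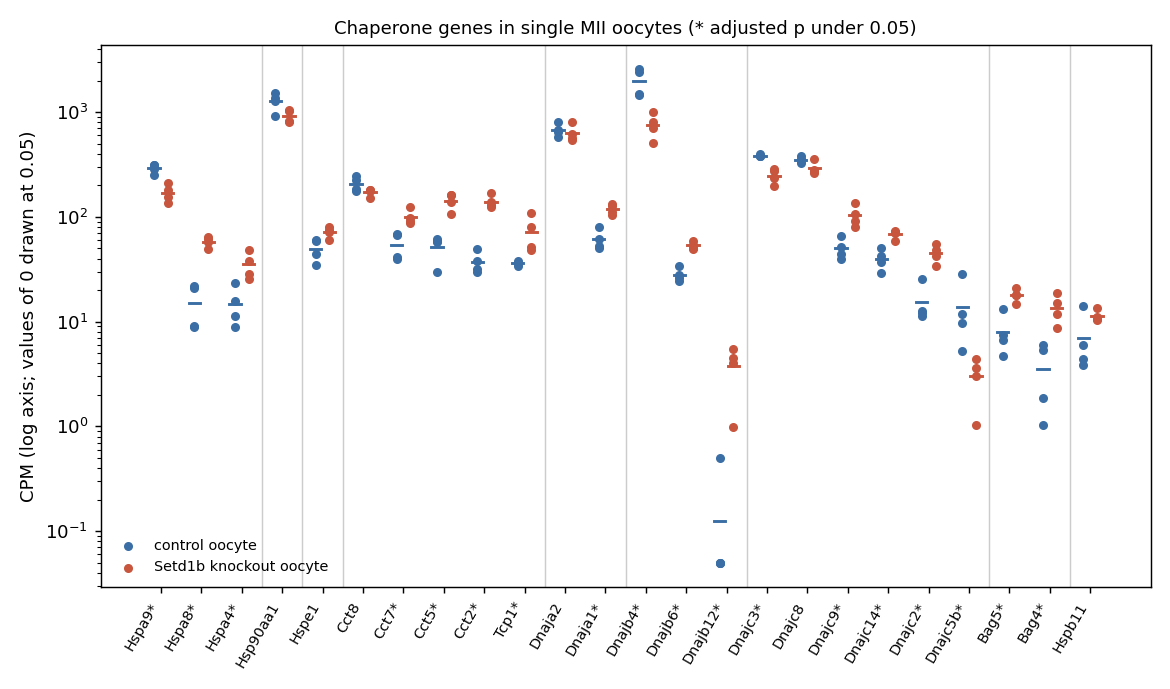
CPM on a log axis in each of the 4 control (blue) and 4 knockout (red) libraries for 24 chaperone genes, grouped by family, with bars at the group means; a star marks an adjusted p under 0.05 and values of 0 are drawn at 0.05. Dnajb4 and Hsp90aa1 are the 2 genes near or above 1000 CPM, and in each of the 18 starred genes the red and blue points are separate.

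Heat shock genes are known for short promoter elements that heat shock factors bind, built of 3-base units facing each other. The promoter windows of 71 of the 87 members were found in RefSeq (GRCm38.p6, 250 bases before to 50 after each start); Hspa8, Hspa9, Hsp90aa1, Hsp90ab1, Bag4 and Dnajc2 were among the 16 without one. Each window was searched on both strands for a pair of facing units, GAANNTTC or TTCNNGAA; each of the 2 words reads the same on the other strand, and both count the same pair where they overlap. A gene can have several windows, and it was counted where any of them held a pair. By this count a pair was present in 21 of 71 members (29.6%), against 16.97% of 27025 genes. Of members with a window, it was present in 4 of the 11 higher ones (Cct2, Cct5, Dnaja1 and Dnajb6) and in Dnajb4 among the 2 lower ones. It was also present in 9 of 35 members tested but not called, and in 7 of 23 members not tested. These shares are descriptions of letters in a window, not of factor binding. An element of at least 3 consecutive alternating units, searched after the data were seen, was present in Dnajb6, Hspd1, Hspe1 and Hsph1. These were 5.63% of the members with a window, against 0.662% of all genes with one. Hspd1 and Hspe1 share the same site of 18 bases, which is thus counted for both genes. The Hsph1 element lies after the start. The stretches below show the pair or element in capitals for the 5 called members that hold one. The site shared by Hspd1 and Hspe1, neither of which was called, is shown as well.
Cct2, minus strand, chr10:117063399-117063428: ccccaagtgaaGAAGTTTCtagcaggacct
Cct5, minus strand, chr15:31601862-31601891: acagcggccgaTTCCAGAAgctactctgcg
Dnaja1, plus strand, chr4:40722333-40722362: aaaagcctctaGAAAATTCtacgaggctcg
Dnajb6, plus strand, chr5:29735844-29735872: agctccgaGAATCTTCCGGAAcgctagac
Dnajb4, minus strand, chr3:152193846-152193870: ttcgttcgctgTTCTAGAAagtaca
Hspe1, plus strand, chr1:55088053-55088082: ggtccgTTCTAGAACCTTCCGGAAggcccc
The Dnajb4 element ends 6 bases before the RefSeq start. Those of Cct5, Dnajb6, Cct2 and Dnaja1 end 26, 33, 34 and 116 bases before it. The Ensembl models of Cct2 and Dnajb4 in the count table begin farther upstream, so those 2 stretches lie inside the models but in no exon. The stretches of Cct5, Dnaja1, Dnajb6 and Hspe1 each overlap an exon of the same or another gene in the count table. Those of Dnaja1 and Dnajb6 lie within the span of their own models. None of 4 tested genes in the list of heat shock factors, which includes the factor-binding protein Hsbp1, was higher. Hsf1, the main factor of the heat response, stood at 84.4 CPM in knockout and 93.0 CPM in control oocytes (log2 fold change -0.14). These are mRNA levels, and the activity of the factors was not measured.

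Among the HSP70 and HSP110 genes, the constitutive cytosolic HSP70 was higher in knockout oocytes and the mitochondrial one lower. Of 13 members 9 were tested, 2 were higher, 1 was lower and 6 were not called. Hspa8 (ENSMUSG00000015656, chr9:40800984-40805200, mm10), the constitutive HSP70 of the cytosol, stood at 61.3, 64.2, 57.2 and 49.7 CPM in knockout replicates 1 to 4 and at 20.8, 9.04, 8.91 and 21.9 CPM in control replicates 1 to 4. Each knockout value was more than 2 times the highest control value (log2 fold change 1.94 ± 0.34, SE, n = 4 per group; edgeR adjusted p = 0.00184). Hspa4, an HSP110 that exchanges the nucleotide of HSP70, stood at 37.7, 28.6, 25.7 and 48.4 CPM in the knockout and at 8.93, 11.3, 15.8 and 23.2 CPM in the control libraries. The groups did not overlap, though knockout replicate 3 lay close to control replicate 4 (log2 fold change 1.24 ± 0.35; edgeR adjusted p = 0.0215). Hspa9 (ENSMUSG00000024359, chr18:34937414-34954357), the mitochondrial HSP70 that pulls proteins through the import channel, stood at 136, 155, 179 and 208 CPM in the knockout and at 252, 315, 288 and 312 CPM in the control libraries. All knockout values lay below all control values (log2 fold change -0.78 ± 0.17; edgeR adjusted p = 0.00731).

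Put as a ratio, which restates these 2 calls, Hspa9 to Hspa8 was 2.22 to 4.19 in the knockout libraries and 12.1 to 34.9 in the control libraries, in CPM of genes with similar model lengths (3932 and 4156 bp). Of the HSP70 genes not called, Hspa5, the HSP70 of the endoplasmic reticulum, gave a log2 fold change of 0.37 and Hspa13, also of the endoplasmic reticulum, gave -0.83. Hspa4l (0.16), Hsph1 (0.08) and Hspa2 (0.02) lay near 0, and Hspa12a, a distant relative, gave -0.74. The stress-inducible genes Hspa1a and Hspa1b had 10 and 19 counts over the 4 knockout libraries and none in the control libraries, which is too few to test. A count of 0 allows up to 3 counts, or 0.222 to 0.316 CPM per library before composition scaling. That range covers counting error only. Whether reads shared by these neighbouring genes were lost in mapping or counting was not tested, so their level may be higher. Hspa1l had 4 counts in knockout replicate 1 and Hspa12b none. The summed level of the family was 539 ± 53.5 CPM in knockout and 596 ± 57.1 CPM in control oocytes (SD, n = 4), with overlap. Of the 3 calls, that of Hspa4 was lost without knockout replicate 1 (adjusted p = 0.0555), knockout replicate 4 (0.0712) or control replicate 2 (0.0561) and with a length trend removed (0.0546, or 0.0137 with the library mean kept). That of Hspa9 was lost with library totals only (0.105).

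The 3 HSP90 genes under the symbol rule were abundant and none was called. Hsp90aa1, the inducible cytosolic HSP90 and, per kilobase of gene model, the most abundant of the 3, stood at 824, 1027, 1039.7 and 799.8 CPM in the knockout and at 1364, 1289.8, 922 and 1528 CPM in the control libraries. Control replicate 3 lay within the knockout range and the other control libraries above it (log2 fold change -0.47 ± 0.18; edgeR adjusted p = 0.082). Hsp90ab1, the constitutive cytosolic form, had 427 ± 72.6 CPM in knockout and 428 ± 81.2 CPM in control oocytes (log2 fold change -0.0034 ± 0.19). Hsp90b1, the form of the endoplasmic reticulum also called GRP94, gave -0.28 ± 0.25. Without control replicate 3, Hsp90aa1 passed the threshold (adjusted p = 0.0259), as it did in DESeq2 with all libraries (0.0421). It also passed in edgeR with a length trend removed (log2 fold change -0.87, adjusted p = 0.0159), but not with the library mean kept (0.118).

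Subunits of the TRiC/CCT chaperonin did not move as a block: 4 of the 7 tested were higher in knockout oocytes and 3 were not called, although the assembled ring holds its subunits in equal numbers. Cct2 (ENSMUSG00000034024, chr10:117050998-117063814), which encodes the beta subunit and holds the promoter pair shown above, had the smallest adjusted p of all members. It stood at 123, 138, 129 and 168 CPM in knockout replicates 1 to 4 and at 49.3, 37.8, 29.96 and 31.8 CPM in control replicates 1 to 4. The lowest knockout value was above the highest control value by a wide margin (log2 fold change 1.91 ± 0.21; edgeR adjusted p = 0.000155). Cct5 (ENSMUSG00000022234, chr15:31590800-31601847), the epsilon subunit, stood at 139, 160.3, 161 and 107 CPM in the knockout and at 57.4, 62.0, 29.7 and 58.6 CPM in the control libraries. Control replicate 3 was low among its group, and no control value reached the knockout range (log2 fold change 1.45 ± 0.25; edgeR adjusted p = 0.00185). Tcp1, the alpha subunit, stood at 80.0, 108, 51.2 and 48.1 CPM in the knockout, a spread of more than 2 times, and at 36.2, 37.5, 36.5 and 34.3 CPM in the control libraries, which were almost equal (log2 fold change 0.99 ± 0.27; edgeR adjusted p = 0.0187). Cct7, the eta subunit, stood at 91.2, 125, 86.9 and 97.3 CPM in the knockout and at 66.5, 68.6, 39.2 and 41.3 CPM in the control libraries, again without overlap (log2 fold change 0.89 ± 0.24; edgeR adjusted p = 0.0178).

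The subunit that led in control oocytes showed no such rise. Cct8, the theta subunit, stood at 176, 151, 179 and 182 CPM in the knockout and at 183, 223, 175 and 243 CPM in the control libraries, with overlap (log2 fold change -0.26 ± 0.17; edgeR adjusted p = 0.273). Cct4 (0.24 ± 0.39) and Cct3 (0.16 ± 0.28) were not called either. Per kilobase of gene model, Cct8 had 66.8 ± 10.5 CPM in control oocytes (SD, n = 4), ahead of Cct7 (22.0 ± 6.45), Cct2 (19.0 ± 4.43) and Cct5 (18.5 ± 5.32), and those 3 did not differ beyond their spread. In knockout oocytes Cct2 came first with 71.0 ± 10.2 CPM per kilobase, followed by Cct8 with 55.7 ± 4.61, Cct5 with 50.5 ± 9.08 and Cct7 with 40.9 ± 7.07. The ratio of Cct8 to Cct2 per kilobase was 2.36 to 4.85 in control libraries and 0.688 to 0.906 in knockout libraries. Tcp1, Cct3 and Cct4 stood lower in both groups, at 4.07 to 14.3 CPM per kilobase. The models of Tcp1 and Cct3 are 5030 and 4689 bp long, against 1962 bp for Cct2. In CPM not divided by length, the control means of Tcp1 (36.1) and Cct3 (35.6) were near that of Cct2 (37.2), and Cct4 (17.1) was lower. In knockout oocytes Tcp1, Cct3 and Cct4 stayed below Cct2 in CPM as well. Cct6a, which encodes the zeta subunit of the same ring, had 28 counts over the knockout and 4 over the control libraries; whether reads were lost for it in mapping or counting was not tested. Cct6b, its testis form, had 5 and 1 counts, and Cct8l1 had none.

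**Figure D3:**
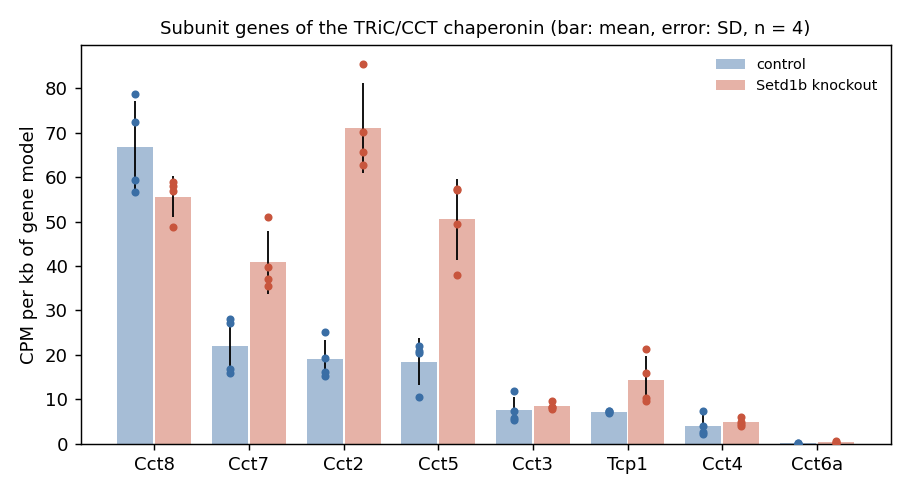
CPM per kilobase of gene model for the TRiC/CCT subunit genes in control (blue) and knockout (red) oocytes; bars are means, error bars the SD over 4 libraries and points the libraries. Cct8 is the tallest control bar at 66.8, Cct2 the tallest knockout bar at 71.0, and Cct3 and Cct4 are low in both groups.

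The summed CPM of the CCT genes was 686 ± 33.8 in knockout and 438 ± 57.9 in control oocytes (SD, n = 4), without overlap. Cct2 and Cct5 stayed called in all 16 alternatives, while Cct7 lost its call without knockout replicate 2 (adjusted p = 0.0652) and Tcp1 without knockout replicate 1 (0.0543) or knockout replicate 2 (0.0728). With a length trend removed Cct7 (0.337) and Tcp1 (0.067) were not called and Cct8 was lower (log2 fold change -0.75, adjusted p = 0.0142), but with the library mean kept Cct7 (0.0387) and Tcp1 (0.0129) were called and Cct8 was not (-0.35, adjusted p = 0.151).

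The mitochondrial chaperonin genes were not called. Hspe1, the lid HSP10, stood at 60.1, 79.3, 75.7 and 71.1 CPM in the knockout and at 60.6, 43.8, 34.6 and 58.5 CPM in the control libraries. Only knockout replicate 1 fell within the control range (log2 fold change 0.54 ± 0.23; edgeR adjusted p = 0.102). It passed the threshold with library totals only (0.00564) and among genes of at least 10 CPM in 4 libraries (0.0308). Hspd1, the barrel HSP60, had 64.1 ± 4.45 CPM in knockout and 58.2 ± 18.1 CPM in control oocytes (log2 fold change 0.14 ± 0.23). The 2 genes lie head to head on chromosome 1 around the promoter element shown above, and their models share 112 exonic bases on opposite strands. Counting ignored the strand and used no option for reads in several genes, so reads there cannot be told apart and can be lost for both genes. Of the processed copies of these genes, left out by the rule, Hspd1-ps3 held 514 counts in knockout and 520 in control libraries and Hspe1-ps3 held 101 and 46.

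J proteins were the largest group, with calls in both directions; the most abundant gene, Dnajb4, was among those that fell. Of 45 J protein genes 33 were tested, 6 were higher, 3 were lower and 24 were not called. Dnajb4 (ENSMUSG00000028035, chr3:152178511-152210279), a cytosolic J protein that works with HSP70, was the most abundant of the 45 in control oocytes per kilobase as well as in CPM. It stood at 510.2, 813, 1009 and 704 CPM in knockout replicates 1 to 4 and at 2406, 1458, 1488 and 2562 CPM in control replicates 1 to 4. Both groups were spread widely, yet the highest knockout value lay below the lowest control value (log2 fold change -1.38 ± 0.25; edgeR adjusted p = 0.00247). Dnajb4 made up 38.2% to 51.9% of the summed J protein CPM in the control libraries and 17.9% to 30.2% in the knockout libraries. The summed CPM of all J protein genes was lower in every knockout library, at 3139.5 ± 222 against 4256 ± 682 (SD, n = 4), without overlap. Without Dnajb4 the sums were 2380.4 ± 126 and 2277 ± 149 CPM, with overlap. Dnaja2, the next in CPM and a general partner of HSP70, stood at 569.8, 538, 613 and 809.9 CPM in the knockout and at 645, 679, 583 and 796 CPM in the control libraries, which overlapped throughout (log2 fold change -0.10 ± 0.17; edgeR adjusted p = 0.725).

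**Figure D4:**
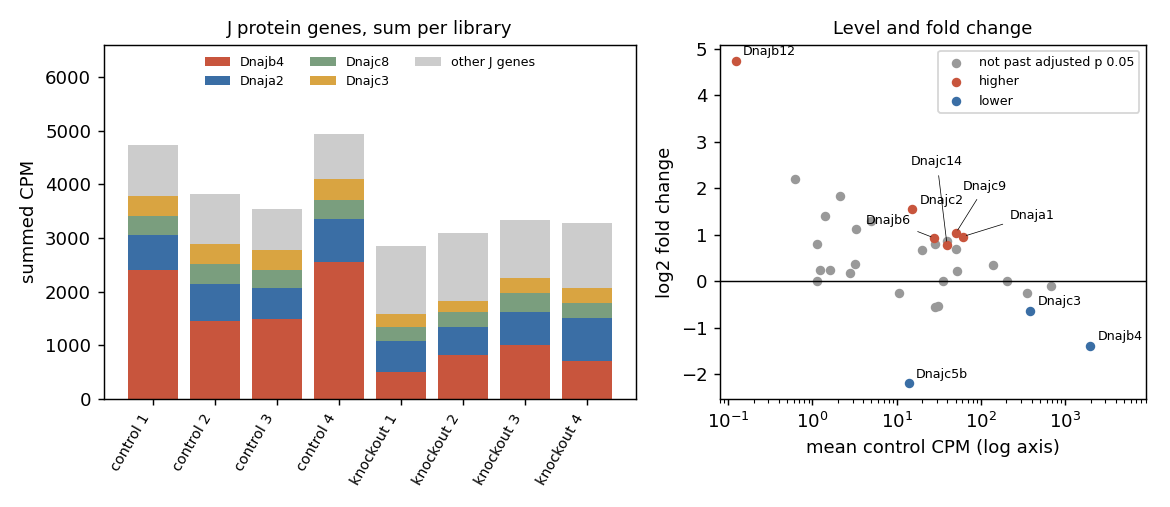
Left, CPM of J protein genes stacked per library, with the 4 most abundant in colour; the red Dnajb4 segment is 1458 to 2562 CPM in control and 510.2 to 1009 CPM in knockout libraries. Right, log2 fold change against mean control CPM on a log axis for the 33 tested J protein genes, where the higher genes lie at or below 61.0 CPM in control oocytes.

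Of the Dnaja genes, Dnaja1, a farnesylated cytosolic partner of Hspa8, was higher. It stood at 104, 131, 111 and 128 CPM in the knockout and at 61.4, 52.6, 50.5 and 79.5 CPM in the control libraries, without overlap (log2 fold change 0.96 ± 0.20; edgeR adjusted p = 0.00508). Dnaja3, a mitochondrial J protein, gave -0.53 ± 0.36 and Dnaja4 gave -0.25 ± 0.41. The Dnaja1 model shares 608 of its 8629 exonic bases (7.05%) with Smu1 on the opposite strand, which had 28441 counts in knockout and 27420 in control libraries.

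Among the Dnajb genes other than Dnajb4, Dnajb6 and Dnajb12 were higher. Dnajb6, known for holding polyglutamine proteins soluble, stood at 53.5, 59.3, 49.8 and 50.8 CPM in the knockout and at 33.7, 25.8, 24.5 and 27.9 CPM in the control libraries. Both groups were tight and separate (log2 fold change 0.93 ± 0.21; edgeR adjusted p = 0.00823). Dnajb12, a J protein anchored in the membrane of the endoplasmic reticulum, stood at 4.51, 5.51, 0.99 and 4.01 CPM in the knockout and at 0, 0, 0.495 and 0 CPM in the control libraries. The 187 knockout counts stood against 6 control counts, all in control replicate 3, so the fitted log2 fold change of 4.74 ± 1.27 depends on the prior count (edgeR adjusted p = 0.0177). It ranged from 4.33 to 8.43 over the alternatives. Dnajb1, the classical stress-inducible HSP40, had 71.4 ± 35.8 CPM in knockout and 39.3 ± 12.4 CPM in control oocytes (log2 fold change 0.86 ± 0.36; edgeR adjusted p = 0.10). Dnajb9, a J protein of the endoplasmic reticulum induced when proteins misfold there, gave 1.83 ± 0.65, with an edgeR adjusted p of 0.056. Dnajb11 (0.02) and Dnajb14 (0.18) lay near 0; Dnajb2 and Dnajb3 had 19 and 16 counts in all and were not tested, and Dnajb5, Dnajb7, Dnajb8 and Dnajb13 had none. The call of Dnajb12 was lost without knockout replicate 1 (adjusted p = 0.0508) or knockout replicate 2 (0.0606). Without knockout replicate 3, 4 Dnajb genes were higher, beside 1277 of all 11518 genes tested in that fit.

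The Dnajc genes share the J domain and little else. Of 28 members 22 were tested, 3 were higher, 2 were lower and 17 were not called. Dnajc2, which sits on the ribosome and recruits HSP70 to nascent chains, stood at 42.6, 55.4, 33.9 and 48.3 CPM in the knockout and at 25.5, 12.7, 11.2 and 12.1 CPM in the control libraries. Control replicate 1 was high among its group and still below every knockout value (log2 fold change 1.55 ± 0.32; edgeR adjusted p = 0.00474). Dnajc9, a nuclear J protein that also binds histones, stood at 135, 91.6, 79.2 and 107 CPM in the knockout and at 44.6, 51.1, 39.2 and 66.2 CPM in the control libraries (log2 fold change 1.04 ± 0.23; edgeR adjusted p = 0.00772). Dnajc14, a membrane J protein of the endoplasmic reticulum, stood at 58.8, 72.8, 71.0 and 69.8 CPM in the knockout and at 50.5, 36.7, 29.1 and 42.0 CPM in the control libraries (log2 fold change 0.78 ± 0.22; edgeR adjusted p = 0.0218). In both genes the groups did not overlap. The Dnajc14 model shares 36.9% of its exonic bases with Ormdl2 on the opposite strand, which had 522 counts in knockout and 356 in control libraries.

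The 2 lower Dnajc genes were unlike in level. Dnajc3, a co-chaperone in the lumen of the endoplasmic reticulum also known as p58IPK, stood at 233, 199, 285 and 273 CPM in the knockout and at 379, 380.0, 379.8 and 398 CPM in the control libraries. The control values were nearly equal and all above the knockout range (log2 fold change -0.63 ± 0.16; edgeR adjusted p = 0.0128). Dnajc5b, a relative of the cysteine string protein of synaptic vesicles, stood at 4.43, 3.02, 3.60 and 1.03 CPM in the knockout and at 9.70, 5.1997, 11.9 and 28.4 CPM in the control libraries, which spread more than 5 times (log2 fold change -2.18 ± 0.61; edgeR adjusted p = 0.0215). Dnajc8, a splicing-associated J protein and the most abundant Dnajc gene per kilobase, stood at 264, 277, 355 and 273 CPM in the knockout and at 353, 378, 325 and 342 CPM in the control libraries. Knockout replicate 3 lay inside the control range and the other knockout libraries below it (log2 fold change -0.26 ± 0.16; edgeR adjusted p = 0.248).

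The other Dnajc genes were not called. Dnajc15 (2.21), Dnajc5 (0.81), Dnajc10 (0.70) and Dnajc7 (0.68) had every knockout library above every control library without passing the threshold, with edgeR adjusted p of 0.0713, 0.0933, 0.0759 and 0.101. Dnajc13 (0.34) and Dnajc21 (0.01), each at 98.4 CPM or above in every library, overlapped between the groups, and Dnajc1 gave -0.55. The remaining 9 tested genes, Dnajc4, Dnajc5g, Dnajc11, Dnajc16, Dnajc17, Dnajc18, Dnajc19, Dnajc27 and Dnajc30, gave log2 fold changes between 0.01 and 1.4. Of the 6 untested genes, Dnajc28 had 87 counts in knockout and 3 in control libraries, Dnajc24 had 36 and 0, Dnajc25 had 44 and 10, Dnajc6 had 12 and 0, Dnajc12 had 2 and 0, and Dnajc22 had none.

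Several of the Dnajc calls lay close to the threshold. Dnajc3 was not called without knockout replicate 2 (adjusted p = 0.0512) or with library totals only (0.238). Dnajc5b was not called without knockout replicate 2 (0.0602), knockout replicate 4 (0.0505) or control replicate 4 (0.0768), and Dnajc14 was not called without knockout replicate 2 (0.0626), control replicate 2 (0.0528) or control replicate 3 (0.0501). Over the fits that left out 1 library, the log2 fold change of Dnajc3 was -0.71 to -0.53, that of Dnajc5b -2.46 to -1.56 and that of Dnajc14 0.66 to 0.92. With a length trend removed Dnajc9 (0.203) and Dnajc14 (0.249) were not called, though both were with the library mean kept (0.021 and 0.0246), whereas Dnajc2 stayed called in all 16 alternatives.

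BAG proteins release nucleotide, and with it the client, from HSP70. Of 6 members 4 were tested, 2 were higher and 2 were not called. Bag4, also known as silencer of death domains, stood at 18.9, 8.68, 11.9 and 15.01 CPM in the knockout and at 1.87, 1.04, 5.94 and 5.31 CPM in the control libraries, without overlap (log2 fold change 1.94 ± 0.57; edgeR adjusted p = 0.0274). Bag5, built of several BAG domains, stood at 17.96, 17.89, 14.7 and 21.2 CPM in the knockout and at 4.74, 6.64, 7.51 and 13.1 CPM in the control libraries, again without overlap (log2 fold change 1.16 ± 0.38; edgeR adjusted p = 0.0414). Bag1 (1.88 ± 1.17) and Bag6 (0.92 ± 0.65) were not called, and Bag2 and Bag3, the latter a heat shock factor target, had no count in any library. The summed CPM of the family was 39.0 ± 9.27 in knockout and 15.1 ± 5.80 in control oocytes (SD, n = 4), without overlap. The Bag4 call was lost without knockout replicate 1 (adjusted p = 0.0849), knockout replicate 4 (0.0644) or control replicate 1 (0.0597). The Bag5 call was lost when any 1 library other than control replicate 4 was left out, with adjusted p between 0.056 and 0.101.

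The small heat shock protein genes were scarce and none was called. Of 8 members 3 were tested. Hspb11, which in spite of its symbol is a subunit of the intraflagellar transport machinery, stood at 10.3, 13.4, 10.6 and 11.2 CPM in the knockout and at 13.998, 5.92, 3.88 and 4.41 CPM in the control libraries. Control replicate 1 exceeded the whole knockout range (log2 fold change 0.69 ± 0.47; edgeR adjusted p = 0.301). Hspb1 gave 1.90 ± 0.93 on 132 knockout and 30 control counts. Hspb6 gave -1.12 ± 0.56, with every knockout library below every control library and an edgeR adjusted p of 0.166. Hspb3 had 23 counts, all in knockout replicate 4, and Hspb2, Hspb7, Hspb8 and Hspb9 had none.

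Some members were put in lists for the endoplasmic reticulum and the mitochondrion, and neither list showed a common direction. Of the 10 listed members of the endoplasmic reticulum, all tested, Dnajb12 was higher and Dnajc3 lower. Their log2 fold changes were positive in 6 and negative in 4, with a median of 0.10. The list is not complete: Dnajc14, also of the endoplasmic reticulum and called higher (0.78), was not in it. Of the 8 listed mitochondrial members, all tested, Hspa9 was lower and none was higher. Their log2 fold changes were positive in 6 and negative in 2, with a median of 0.24, against 0.10 for all tested genes. Genes of these compartments outside the symbol rule were not in these lists and are given below with the partners.

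The partners of these proteins outside the symbol rule, 64 genes in 6 lists, gave a similar mixture. Of 57 tested, 13 were higher (13.6% of all tested genes were) and 6 lower (12.2% of all), and their median log2 fold change was 0.20. Among 18 tested genes in the list of HSP90 co-chaperones, Nudc, a dynein-associated co-chaperone, rose from 14.4 ± 2.75 to 79.9 ± 23.5 CPM (SD, n = 4, log2 fold change 2.47). The list also holds Trap1, which is itself an HSP90, of the mitochondrion, and rose by 1.90 on the log2 scale. Pih1d1, an R2TP subunit, was called higher on few counts, at 1.98 to 5.66 CPM in knockout and 0 to 0.992 CPM in control libraries; it had enough counts to be tested in the knockout libraries only. Fkbp5 (-0.97), a regulator of steroid receptors, Sugt1 (-0.91) and Cdc37l1 (-0.86) fell, and 11 were not called.

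Among 9 tested prefoldin genes and CCT helpers, Pfdn5, a prefoldin subunit that hands clients to CCT, rose from 58.3 ± 15.5 to 115 ± 10.03 CPM (log2 fold change 0.98), and Pdcl3, a phosducin-like CCT partner, rose from 102 ± 44.1 to 254 ± 41.6 CPM (1.31). Its relative Pdcl fell by 0.87. Of 8 tested HSP70 partners, Hscb, which serves iron-sulfur cluster assembly with Hspa9, rose by 1.45. Calr (0.89), Pdia4 (1.00) and Ero1lb (1.01) were higher among 12 tested folding genes of the endoplasmic reticulum, and none was lower. Of the 6 unfoldases and proteases, Clpx (1.08), Lonp1 (1.79) and Vcp (1.51) were higher and Tor1a (-0.63) lower. Among 4 tested genes in the list of heat shock factors, Hsf5 was lower (-0.997), with overlap between the groups. With library totals only, none of the 64 was lower. With a length trend removed 6 were higher and 19 lower, and with the library mean kept as well 14 were higher and 8 lower; the all-gene counts under these scalings are those given above for the members. Without knockout replicate 2 or knockout replicate 4, 3 were lower, beside 837 and 1066 lower genes among all tested in those fits.

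The authors' deposited table, which lists genes at an adjusted p of at most 0.00999608 in their own comparison, named 18 members, 14 higher and 4 lower. Of these, 17 were also called here, all in the same direction. The exception was Dnajc28, with an unshrunken log2 fold change of 4.71 in the authors' deposited table, which had too few counts to be tested here. Bag5 was called here and is not in the authors' deposited table.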

How the data were processed

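Per the labels' protocols, cDNA of each oocyte was made and amplified with a SMARTer Ultra Low kit, and the libraries were sequenced from 1 end for 75 bases. The kit primes on poly(A) tails and marks neither strand nor molecule, so a level reflects abundance and polyadenylation, and amplified copies count as separate reads. Per the submitters' processing notes, GSNAP, featureCounts 1.4.4, DESeq2 1.3.79 and build mm10 were used. The authors' raw counts per gene used the Ensembl 69 gene models, a mapping quality of at least 1 and no option for strand, for reads mapped to several places or for reads in several genes, per the file headers. Reads of near-identical copies or of exons shared by 2 genes can therefore be lost: 8 of the 18 called, 21 of the 61 tested and 27 of all 87 members share exonic bases with another gene of the table. The count table also gives gene lengths. The authors' deposited comparison table holds log2 fold changes, a standard error (a score), p-values, RPKM values and, for each library, a normalized signal; only its fold changes and p-values were set beside the tests.

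All 8 count columns held whole numbers. The test was edgeR 4.0.16's quasi-likelihood F test under R 4.3.3 on genes kept by filterByExpr, with TMM factors and genotype alone in the model, and Benjamini-Hochberg adjustment over 11066 genes and a threshold of 0.05. Standard errors were taken as the absolute log2 fold change over the root of F. The script was tested on simulated data. Replicates differed by far more than sampling noise (chi-square per degree of freedom of at least 35.3). Symbols were found for 35449 genes in a name table. Values per kilobase use the length in the count table. Counting intervals and the floor of 3 counts cover counting error only.

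Called members, and the uncalled member of each family with the highest CPM per kilobase where that leads the family, are given per library. The members and lists were chosen with earlier results of these data known. The alternatives were library totals only, median-of-ratios size factors, a filter of 10 CPM in at least 4 libraries or none, the replicate number as a block, DESeq2 1.42.0, a length trend removed per library (loess, span 0.5) and each library left out in turn. The length trend removed with the library mean kept, and the search for 3 units, were added after the data were seen. Protein sequences were not used here, and 1 gene of the partner lists is counted but not reported here by name.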

Additional observations from a re-analysis of the deposited data

Results flagged for a closer look

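Of 48 groups of 4 libraries checked (24 genes, 2 genotypes), 5 held 1 library far from the other 3, judged by the gap to its nearest neighbour over the range of the group; chance gives about 1 in 20 groups. Cct5 was lowest in control replicate 3, at 29.7 CPM. Dnajc2 was highest in control replicate 1, at 25.5 CPM, which lies toward the knockout values. Dnajc3 was highest in control replicate 4, at 398 CPM, in a group whose other 3 values were almost equal. Dnajb12 had counts in only 1 control library, replicate 3, at 0.495 CPM. Dnajc8 was highest among knockout libraries in replicate 3, at 355 CPM.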

How the results depend on the processing

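Of the 18 called members, 7 (Cct2, Hspa8, Cct5, Dnajb4, Dnajc2, Dnaja1 and Dnajb6) kept their call and direction in all 16 alternatives, and none of the 18 reversed. Leaving out each library in turn gave 9 to 15 higher and 2 to 5 lower members. It gave 1 to 2 higher genes in Hspa/Hsph, 2 to 4 in Cct/Tcp1, 1 to 4 in Dnajb and 2 to 4 in Dnajc, 0 to 2 lower genes in Dnajc, and 11 to 15 higher and 3 to 7 lower genes in the partner lists. Over all tested genes the same fits gave 1012 to 1597 higher and 837 to 1244 lower. With library totals only, 23 members were higher and 1 lower (Hspa/Hsph 0 lower, Dnajb 4 higher, Dnajc 8 higher and 0 lower, partner lists 0 lower), and Cct8 (0.14), Dnaja2 (0.30) and Dnajc8 (0.13) changed sign. With a length trend removed, 8 members were higher and 9 lower (Hspa/Hsph 1 higher, Cct/Tcp1 2 higher and 1 lower, Dnajc 1 higher, partner lists 6 higher and 19 lower), and Hspe1 changed sign (-0.086). Under that alternative Hsp90aa1, Cct8, Dnaja2 and Dnajc8, not called in the main test, were among the 9 lower members. That alternative also shifts the centring of each library: with the library mean kept, 17 of the 18 calls remained and Bag had 1 higher gene. Setd1b itself was not called with the replicate block (adjusted p = 0.07). With at least 10 CPM in 4 libraries, Dnajc had 6 higher and 1 lower genes and Dnaja2 changed sign (0.034). Over all 6577 genes kept by that filter, 1403 were higher and 1093 lower. DESeq2 gave 5 higher Dnajc genes, beside 2129 higher and 1820 lower among all genes. Same-numbered libraries did not deviate together (correlations between -0.117 and -0.0212), so the numbers were not taken to pair the oocytes. With the replicate block, 10 members were higher and 3 lower (Dnajb 1 higher, Dnajc 1 lower), and over all genes 1090 were higher and 861 lower, against 1503 and 1347 without it. The cause of these shifts was not tested. Precision was limited most for members below about 10 CPM, such as Dnajb12, Bag1 and Hspb1, and 13 members had no count in any library.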
